A study of Mus musculus with 2 samples.

Results

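Among bone marrow cells that carried the green protein of a cell cycle reporter, the cells with the most transcript of 8 mitotic genes were compared with the cells that had the least. The ranking genes were Cenpf, Cdc20, Ube2c, Aurka, Hmmr, Cenpe, Plk1 and Ccnb1, and each cell was ranked by the sum of their levels in CPM (counts per 1000000 counts). Of the 48 cells in the mAG+ gate, 45 had at least 5000 counts and were ranked, and they were split in this order into a low, a middle and a high group of 15 cells each. The high group (mitotic) was set against the low group (S-like). The cells were chosen by measured values of the same contrast, so all values below describe these cells, and no test was run on any of them. The whole series held 192 cells in 4 gates of 48 cells, mKO2high, mKO2low, mKO2neg and mAG+.

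The cells came from the bone marrow of C57BL/6 mice aged 8 weeks that carried the Fucci reporter, in a study on the expansion of quiescent hematopoietic stem cells. All 4 gates share this strain, age, tissue and reporter, and no other allele or agent is named in the labels. The reporter joins orange mKO2 to part of Cdt1, which builds up in G0 and G1, and green mAG to part of geminin, which builds up in S, G2 and M phase. The mAG+ and mKO2neg cells were in 1 library, and the sources used here do not give the animals behind the cells or any surface markers of the sort. Each cell's transcriptome was made by a modified Smart-seq2 method with enrichment of the 3' ends, so the reads of a gene come mostly from its last exon. The 15 cells of a group share 1 library and are not replicates.

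The cell cycle runs from DNA replication in S phase through G2 to the separation of chromosomes in mitosis. E2F factors switch on the genes of replication around the entry into S phase. Later, the complexes formed by B-MYB, FOXM1 and the MuvB core switch on the genes of G2 and mitosis, whose promoters often hold a pair of short elements, the CCAAT box bound by NF-Y and the cell cycle genes homology region (CHR). In mitosis the anaphase-promoting complex, with Cdc20 as its activator and Ube2c as one of its conjugating enzymes, marks cyclin B1, securin and geminin for destruction. Blood stem cells are mostly quiescent, so cells in S, G2 or M phase are a small share of them. The ranking genes are transcribed in G2 as well as in mitosis, and these transcript levels do not tell the phases apart.

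Promoter stretches of 6 genes are printed here to show what the elements look like, and they were chosen for holding them. They are from RefSeq on GRCm38.p6, given 5' to 3' on the gene's own strand, and lie upstream of the annotated exons. The capitals mark matches on either strand to the CHR (TTTGAA or TTCGAA), the CCAAT box and the E2F element (TTTCCCGC or TTTGGCGC). A match is a match of letters and not a shown site. The first 5 genes were higher in the high group and Mcm6 was lower.
Cdc20, chr4:118437354-118437473, minus strand: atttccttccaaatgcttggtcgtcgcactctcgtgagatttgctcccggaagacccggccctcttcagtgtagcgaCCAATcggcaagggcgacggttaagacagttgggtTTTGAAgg
Ccnb2, chr9:70421555-70421724, minus strand: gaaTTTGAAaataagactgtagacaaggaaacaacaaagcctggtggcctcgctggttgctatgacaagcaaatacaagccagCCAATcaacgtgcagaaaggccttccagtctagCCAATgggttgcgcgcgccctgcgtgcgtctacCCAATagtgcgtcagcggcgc
Kpna2, chr11:106999543-106999645, minus strand: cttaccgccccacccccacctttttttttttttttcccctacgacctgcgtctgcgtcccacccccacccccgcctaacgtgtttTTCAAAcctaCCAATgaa
Fam83d, chr2:158767979-158768089, plus strand: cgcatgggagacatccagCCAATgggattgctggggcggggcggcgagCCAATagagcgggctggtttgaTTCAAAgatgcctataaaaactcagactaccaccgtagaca
Cep89, chr7:35396943-35397034, plus strand: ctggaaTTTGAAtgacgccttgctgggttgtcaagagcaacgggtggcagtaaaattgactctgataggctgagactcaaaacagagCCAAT
Mcm6, chr1:128359706-128359825, minus strand: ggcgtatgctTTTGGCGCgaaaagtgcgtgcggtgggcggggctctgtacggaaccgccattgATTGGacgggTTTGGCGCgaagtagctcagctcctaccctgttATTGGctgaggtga

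Each gene is read here from the deposited row of the gene just before it in GENCODE M21 order, because the deposited labels were displaced by 1 gene. In the 147 cells that were not ranked, 52.2% of counts lay in protein-coding genes under the deposited labels and 92.5% when read from the row before. Over all 192 cells, the beta-2-microglobulin gene B2m had 0 counts under its own label and 56396 in the row before, and the topoisomerase gene Top2a had 0 and 4276. For 307 of the 8234 measured genes other than the ranking genes, the gene just before in GENCODE has no row of its own, and those names are less certain. Incenp and Dusp1 are the genes named in the text to which this applies.

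The ranking sum ran from 386 to 10480 CPM over the 45 cells. The highest cell of the low group had 1954 CPM and the lowest cell of the middle group 2065 CPM. At the other edge, the highest cell of the middle group had 4030 CPM and the lowest of the high group 4107 CPM. The order is continuous at both edges, so the groups are ranges and not cell types. The plot of the ranking genes by cell shows this slope, with a single cell far above the next, which had 7106 CPM.

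**Figure D1:**
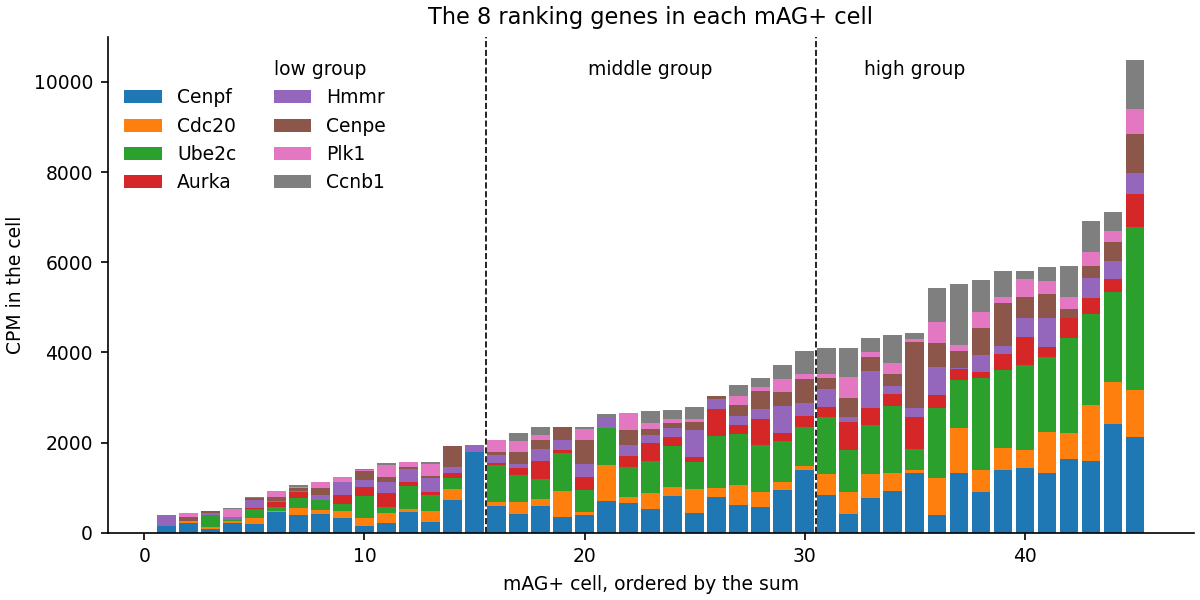
CPM of the 8 ranking genes, stacked, in each of the 45 mAG+ cells in the order of their sum, with dashed lines between the groups. The sum grows from 386 to 7106 CPM without a wide gap at the group edges, and 1 cell stands above the others at 10480 CPM. Wider gaps lie inside the high group, as from 4433 to 5437 CPM.

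The ranking genes differed in how they made up this order, and these values chose the cells. Ccnb1, which encodes cyclin B1, the partner of Cdk1 in mitotic entry, had a median of 0 CPM per cell in the low group with a highest cell of 45.6 CPM. In the high group its lowest cell had 139 CPM, the median was 615 and the highest 1335, so the groups do not overlap for this gene. Ube2c was detected in 12 of 15 cells of the low group with a median of 196 CPM and in all 15 cells of the high group with a median of 1651 CPM.

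Cenpf, a kinetochore protein, was detected in all 30 cells of both groups, with medians of 251 and 1326 CPM. Its highest cell of the low group had 1784.5 CPM, and this cell had the highest ranking sum of that group. Hmmr, a spindle assembly factor, was the ranking gene with the smallest ratio, 2.61, at 161 CPM in the summed low group and 419 CPM in the summed high group. Cenpf, Hmmr, Cdc20, Ube2c, Cenpe and the kinases Aurka and Plk1 overlap between the groups. Only Ccnb1 separates them fully, and its values were part of the ranking.

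Depth was similar in the groups. The median cell had 46841 counts in the low group, 57434 in the middle group and 45064 in the high group, with cells from 8261 to 184672 counts over the 3 groups. At an equal 5000 counts per cell, medians of 2137, 2140 and 2112 gene rows were detected. The median share of mitochondrially encoded counts was 3.18% in both the low and the high group. Across the 45 cells the ranking sum and the counts per cell had a Pearson r of 0.013.

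Among 10 marker lists of other marrow cell types, the neutrophil list had 3 of 8 members measured and all 3 were higher. Its summed level was 35.7 CPM in the low group and 806 CPM in the high group, where 1 cell had 4779 CPM and the median cell had 22.2. That cell was the deepest of its group, with 136227 counts, and held 92.7% of the group's S100a8 counts and 93.5% of its Camp counts. Without it the median log2 ratio of the 3 measured neutrophil genes was 0.33, against 5.08 with it. Other lists also held members that were higher, 2 of 2 measured for B cells, 3 of 6 for megakaryocytes, 2 of 6 for erythroid cells and 1 of 2 for stromal and endothelial cells. Over all 8234 measured genes other than the ranking genes, 18.4% were higher and 15.6% lower. In the megakaryocyte list 1 of 6 was lower, and Flt3, the only measured lymphoid progenitor gene, was lower. Of the erythroid genes, Hbb-bt had 35.7 and 262 CPM and Tfrc had 8.40 and 58.2 CPM, with 81.9% and 79.9% of the high group's summed per-cell CPM in 1 cell. Emcn, an endothelial marker also found on stem cells, had 18.9 and 134 CPM. The summed level of the B cell list ran from 0 to 154 CPM per cell in the low group and from 0 to 339 CPM in the high group. The megakaryocyte sum ran from 62.3 to 569 CPM and from 54.3 to 1439 CPM, and its median log2 ratio was 0.66 with and -0.06 without the cell rich in neutrophil transcripts. The part of these transcripts in other results was not tested beyond leaving out that cell. Mpo, Elane, Cd3e and C1qa, markers of myeloid, T and macrophage cells, did not pass the filter of at least 10 counts and counts in at least 6 cells. Elane and Cd3e had no count in either group. Of the same lists, Prtn3 and Calr (myeloid) and Nkg7 (T and NK cell) did pass and were called neither way. The myeloid list summed to 736 CPM in the low group and 661 CPM in the high group. The macrophage list had 0 of 7 members measured. The stem cell factor receptor gene Kit had counts in all 30 cells of both groups.

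One cell of the low group also stood apart. It had 11768 counts and only 769 gene rows at equal depth, carried a count in 1 of 16 S phase markers, and was the highest-ranked cell of its group. It also gave the highest low-group values of Cenpf, Ccnb2, Cenpa and Lig1, and the low-group values of 0 for Pcna and Mcm6. Leaving it out changed the count of members called in the late or S phase lists by less than 1.5 times.

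Genes were called higher or lower where the summed CPM of the groups differed at least 2-fold. Among the 8234 measured genes other than the ranking genes, 1511 (18.4%) were higher and 1282 (15.6%) lower in the high group, so 33.9% were called either way, and the median log2 ratio was 0.04. For none of the 8234 genes (0%) did the single-cell values of the groups fail to overlap. Intervals on single genes below are exact 95% intervals of the ratio of the summed counts, which cover counting error only, and a log2 ratio uses a prior count of 1.

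Genes of DNA replication were mostly lower in the high group. Of 112 measured members of the 5 S phase lists, 80 were lower and 4 higher, and their log2 ratios had a median of -1.60. The shares lower and higher were 71.4% and 3.57%, against 15.6% and 18.4% of all measured genes. Summed over the 122 list members, the S phase genes took 19190 CPM in the median cell of the low group, with cells from 9687 to 22689 CPM. In the high group the median was 7461 CPM and cells ran from 3018 to 14236. All 15 cells of the low group lay above the median of the high group, and 13 of the 15 lay above its highest cell.

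**Figure D2:**
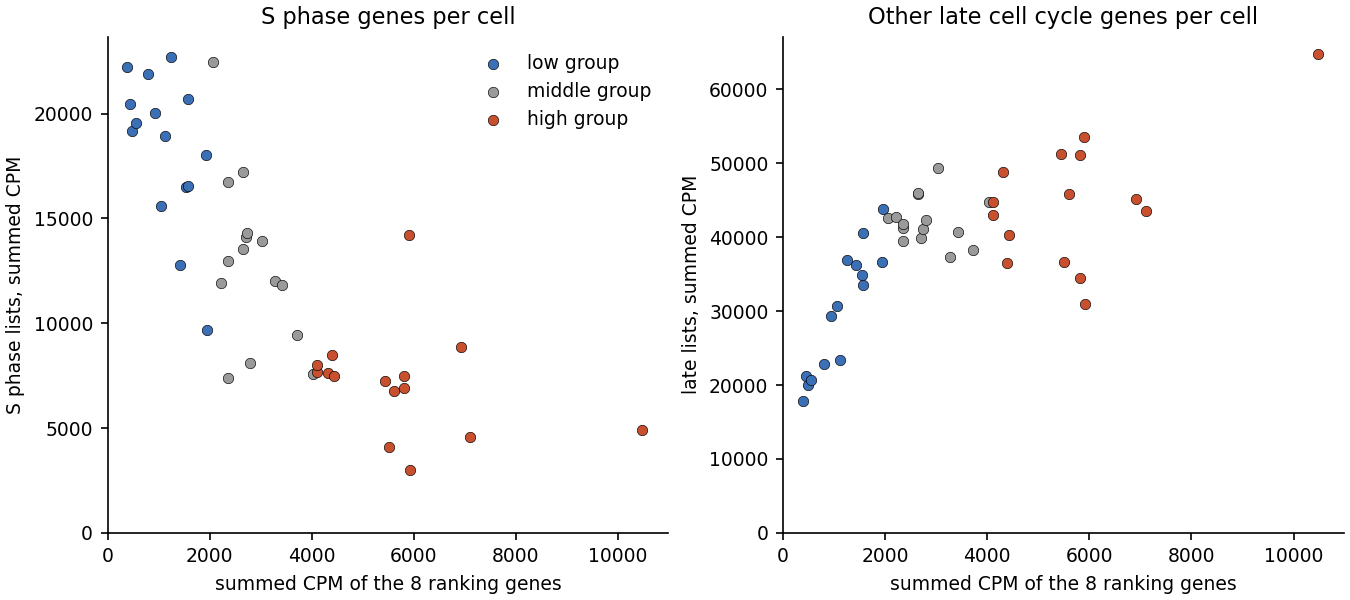
Summed CPM per cell of the 122 S phase list genes (left) and of the 161 late list genes other than the ranking genes (right) against the ranking sum, 1 point per mAG+ cell and coloured by group. The S phase sum is lower along the order, with medians of 19190 CPM in the low and 7461 CPM in the high group, and the late sum is higher, with medians of 30753 and 44734 CPM.

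In origin licensing, the step that loads the MCM helicase on DNA, 15 of 22 measured members were lower and 2 higher, with a median log2 ratio of -1.26. Mcm6, a helicase subunit, was detected in 14 cells of the low group, with a lowest value of 0, a median of 425 and a highest of 1536 CPM. In the high group 11 cells had counts, with a median of 38.2 and a highest of 175.7 CPM. Apart from the 1 low-group cell at 0, nearly all low-group cells stood higher, and 13 of 15 exceeded every high-group cell. The summed level was 427 CPM against 45.4 CPM, 9.41-fold lower in the high group (6.77 to 13.4).

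Mcm2 was 10.7-fold lower (5.92 to 21.1), and Mcm3, Mcm5 and Mcm7 were from 3.25-fold to 3.69-fold lower. Cdt1, the loading factor whose fragment drives the orange reporter, had 163 counts in 13 cells of the low group and 1 count in 1 cell of the high group. That is a ratio of 147 (26.0 to 5840). Gmnn, which encodes geminin, the inhibitor of Cdt1 and the source of the green reporter, was 4.83-fold lower (3.59 to 6.61).

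For Gmnn the median cell had 274 CPM in the low group and 69.3 CPM in the high group, and the highest cells had 605 and 288 CPM. The groups overlap, with 7 of 15 low-group cells above every high-group cell. All these cells were sorted as positive for the mAG protein, so the counts read as Gmnn varied among cells that had the reporter. Whether transcripts of the reporter add to the counts of Cdt1 or Gmnn was not stated in the labels. Orc5 and Dbf4, an origin recognition subunit and the activator of the Cdc7 kinase, were the 2 licensing genes that were higher, at 4.57-fold (2.07 to 11.5) and 3.03-fold (2.16 to 4.31).

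At the replication fork, 22 of 29 measured members were lower and 0 higher, at a median log2 ratio of -1.47. Pcna, the sliding clamp of the DNA polymerases, had a median of 872 CPM in the low group, where 1 cell had 0 and the highest 1197. The high group had a median of 44.7 and a highest of 267 CPM, with 12 cells detected. All low-group cells but the one at 0, 14 of 15, lay above every cell of the high group, and the sums of 709 and 76.9 CPM were 9.22-fold apart (7.15 to 12.1). Pcna-ps2, a pseudogene, had 37 and 4 counts and shares sequence with Pcna, so its reads are uncertain.

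Lig1, the ligase that joins Okazaki fragments, was detected in all 15 cells of the low group, from 104 to 1954 CPM with a median of 579. In the high group it ranged from 0 to 199 CPM with a median of 77.2. Again 14 of 15 low-group cells exceeded every high-group cell, and Lig1 was 10.2-fold lower in the high group (7.71 to 13.9). Pold2, a subunit of DNA polymerase delta, was 8.26-fold lower (5.72 to 12.3). Pole, the catalytic subunit of polymerase epsilon, had 56 counts in 7 cells of the low group and none in the high group, which at a floor of 3 counts per group is at least 16.8-fold lower, with an exact interval that begins at 13.2.

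Genes that supply nucleotides followed the same order, with 13 of 20 measured members lower and 1 higher and a median log2 ratio of -1.31. Tk1, thymidine kinase, had medians of 593 and 120 CPM per cell in the low and high group and was 4.07-fold lower in the high group (3.31 to 5.02). Dut, which removes dUTP, went from 857 to 265 CPM, 3.23-fold (2.78 to 3.75), and Rrm2, the ribonucleotide reductase subunit, was 6.63-fold lower (4.54 to 9.99). Impdh2, which makes guanine nucleotides, was among the members called neither way, with 478 and 409 CPM.

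E2F factors, G1/S cyclins and their targets had the lowest list median, a log2 ratio of -1.84, with 17 of 23 measured members lower and 1 higher. E2f8, a repressor of the E2F family, had counts in 11 cells of the low group and 3 of the high group and was 15.5-fold lower (6.39 to 49.0). Ccne2, cyclin E2, had 51 counts in 8 cells of the low group and none in the high group, at least 15.3-fold lower, with an exact interval that begins at 12.0. Dnmt1, which maintains DNA methylation behind the fork, was 5.11-fold lower (3.99 to 6.62), and Slbp, the binding protein of histone mRNA, 4.23-fold lower (2.82 to 6.55).

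The D-type cyclins, which act before S phase, did not follow this direction. Ccnd3 was the member that was higher in the high group, 2.11-fold (1.33 to 3.40). Ccnd2 had 204 CPM in the low group, 396 CPM in the high group and 884 CPM in the mKO2neg cells, a ratio between the groups of 1.94 (1.62 to 2.33), just under the 2-fold rule.

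Repair genes that work at the fork had 13 of 18 measured members lower and 0 higher, at a median log2 ratio of -1.68. Brca2, which acts in homologous recombination, was 3.05-fold lower (2.25 to 4.20). Of the measured replication-dependent histone genes, whose mRNAs mostly lack a poly(A) tail, 10 of 22 (45.5%) were lower and 3 (13.6%) higher. Over all measured genes these shares were 15.6% and 18.4%. Hist1h2ae had 587 CPM in the low group and 203 CPM in the high group, 2.90-fold lower (2.44 to 3.45).

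**Figure D3:**
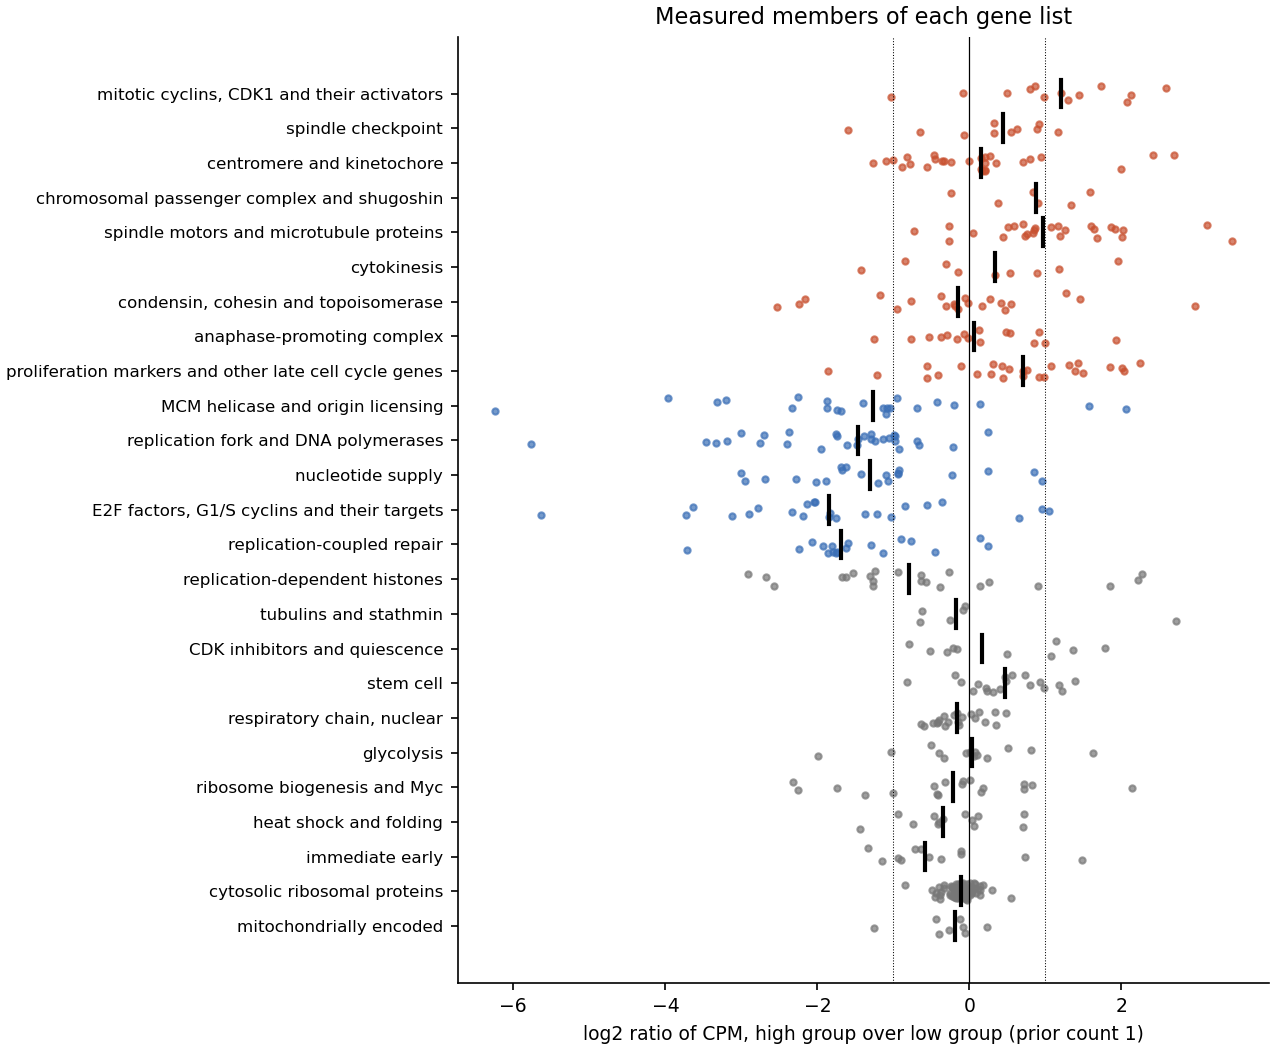
Log2 ratio of summed CPM, high group over low group, for each measured member (point) of 25 gene lists, with the list median as a black bar and dotted lines at 2-fold. Medians of the 5 S phase lists (blue) lie between -1.26 and -1.84, and those of the 9 late lists (red) between -0.15 and 1.20.

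Late cell cycle genes other than the ranking genes were split. Of 155 measured members of the 9 late lists, 41 were higher in the high group, 13 lower and 101 neither, with a median log2 ratio of 0.45. The shares higher and lower were 26.5% and 8.39%, against 18.4% and 15.6% of all measured genes. The median cell had 30753 CPM over these 161 genes in the low group, 41742 in the middle group and 44734 in the high group. In the mKO2neg cells of the same library the median was 5411 CPM. The low group therefore already stood well above the mKO2neg gate in these genes.

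The regulators of Cdk1 had the highest median of the 9 late lists, with 7 of 13 measured members higher, 1 lower and a median log2 ratio of 1.20. The shares higher and lower were 53.8% and 7.69%, against 18.4% and 15.6% of all measured genes. Ccnb2, cyclin B2, was detected in all 30 cells, with a lowest cell of 101, a median of 274 and a highest of 1700 CPM in the low group. In the high group these values were 208, 1148 and 2050 CPM. The ranges overlap, but 14 of 15 high-group cells lay above the low-group median. The sums of 371 and 1231 CPM were 3.32-fold apart (2.94 to 3.76).

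Cks2, a small subunit that binds Cdk1, was 2.71-fold higher (2.39 to 3.08), and 13 of 15 high-group cells exceeded every low-group cell. Ccna2, cyclin A2, was 2.31-fold higher (1.96 to 2.72). Cdk1 itself had 527 and 959 CPM, a ratio of 1.82 (1.63 to 2.04). Pkmyt1, a kinase that holds Cdk1 inactive, was the member that was lower, 2.13-fold (1.02 to 4.78), on 26 and 11 counts.

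Motors and other proteins of the spindle had 13 of 26 measured members (50%) higher and 0 (0%) lower, against 18.4% and 15.6% of all measured genes. Their median log2 ratio was 0.97. Kpna2, an importin that binds spindle assembly factors, had a median of 20.8 and a highest value of 137 CPM in the low group, where 9 cells had counts. All 15 cells of the high group had counts, from 27.1 to 650 CPM with a median of 262, and 10 of them exceeded every low-group cell. The summed level was 8.94-fold higher (6.28 to 13.1).

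Fam83d, which recruits casein kinase 1 to the spindle, was found in 3 cells of the low group and 12 of the high group and was 11.8-fold higher (6.54 to 23.5). The kinesins Kif18a, Kif22 and Kif20b were 4.18-fold, 2.29-fold and 2.12-fold higher. The kinesin Kif11, which pushes the spindle poles apart, had 176 and 182 CPM and a ratio of 1.03 (0.82 to 1.29).

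Of the centromere and kinetochore list, 3 of 28 measured members were higher and 3 lower, both below the shares over all measured genes, with a median log2 ratio of 0.15. Cenpa, the histone H3 variant that marks centromeres, was detected in all 30 cells, with medians of 104 CPM in the low and 1433 CPM in the high group. Its highest value, 3739 CPM, was in a cell of the low group, and no high-group cell exceeded it, although all 15 high-group cells lay above the low-group median. Cenpa was 5.35-fold higher in the high group by the sums (4.69 to 6.12). Without the low-group cell at 3739 CPM its log2 ratio was 2.65, against 2.42. Spc24, of the Ndc80 complex, had 571 and 332 CPM, a ratio below 1 that did not reach 2-fold.

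Among spindle checkpoint genes, which hold back anaphase, 1 of 10 measured members was higher and 1 lower. Each share, 10%, is below the 18.4% higher and 15.6% lower of all measured genes. Bub1b was 2.26-fold higher (1.77 to 2.92), and Mad2l1 had 321 and 306 CPM, a ratio of 0.95 (0.81 to 1.13). Of the chromosomal passenger complex and shugoshins, 2 of 6 (33.3%) were higher and 0 lower. Birc5, the survivin subunit, had 623 and 1116 CPM, and Aurkb, its kinase, had 327 and 275 CPM. Incenp, the scaffold of that complex, had 249 and 325 CPM.

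Of the condensin, cohesin and topoisomerase list, 3 of 21 measured members were higher and 4 lower, shares of 14.3% and 19.0% that are near the 18.4% and 15.6% of all measured genes. Pttg1, which encodes securin, was 8.32-fold higher (4.74 to 15.7) and present in 14 high-group and 7 low-group cells, but its 122 CPM in the high group was close to the 123 CPM of mKO2neg cells. Rad21, the cohesin subunit that separase cuts, was 2.77-fold higher (2.29 to 3.35). Esco2, which acetylates cohesin during replication, was 5.86-fold lower (4.31 to 8.12), and the condensin II gene Ncapg2 was 4.94-fold lower (3.01 to 8.53).

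Several widely used proliferation markers hardly separated the groups. Top2a, which untangles sister chromatids, had 1240 CPM in the low group and 1499 CPM in the high group, a ratio of 1.21 (1.12 to 1.31). Mki67, the gene of the Ki-67 antigen, had 528 and 644 CPM, a ratio of 1.22 (1.08 to 1.38). In the mKO2neg cells these genes had 160 and 67.2 CPM. Both were thus far above the mKO2neg gate in each group, and the single-cell values of the groups overlap almost entirely.

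In the list of proliferation markers and other late genes, 9 of 26 measured members (34.6%) were higher and 2 (7.69%) lower. Over all measured genes these shares were 18.4% and 15.6%. Arl6ip1, a protein of the endoplasmic reticulum, ran from 149 to 1190 CPM in the low group and from 1021 to 2661 CPM in the high group. It was 2.62-fold higher (2.38 to 2.90), and 14 of 15 high-group cells exceeded every low-group cell. Tuba1c, an alpha-tubulin, was 4.11-fold higher (3.62 to 4.68). Plk4, the kinase that starts centriole duplication, was 3.71-fold lower (2.54 to 5.57).

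Subunits of the anaphase-promoting complex, the machine that Cdc20 and Ube2c work with, had 1 of 16 measured members higher and 1 lower. Each share, 6.25%, is below that of all measured genes, and the median log2 ratio of the subunits was 0.06. Of 9 cytokinesis genes, 2 (22.2%) were higher and 1 (11.1%) lower, against 18.4% and 15.6% of all measured genes. Ect2, the exchange factor that places the cleavage furrow, was 3.99-fold higher (2.67 to 6.10). Anln, anillin, had 177 and 160 CPM.

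**Figure D4:**
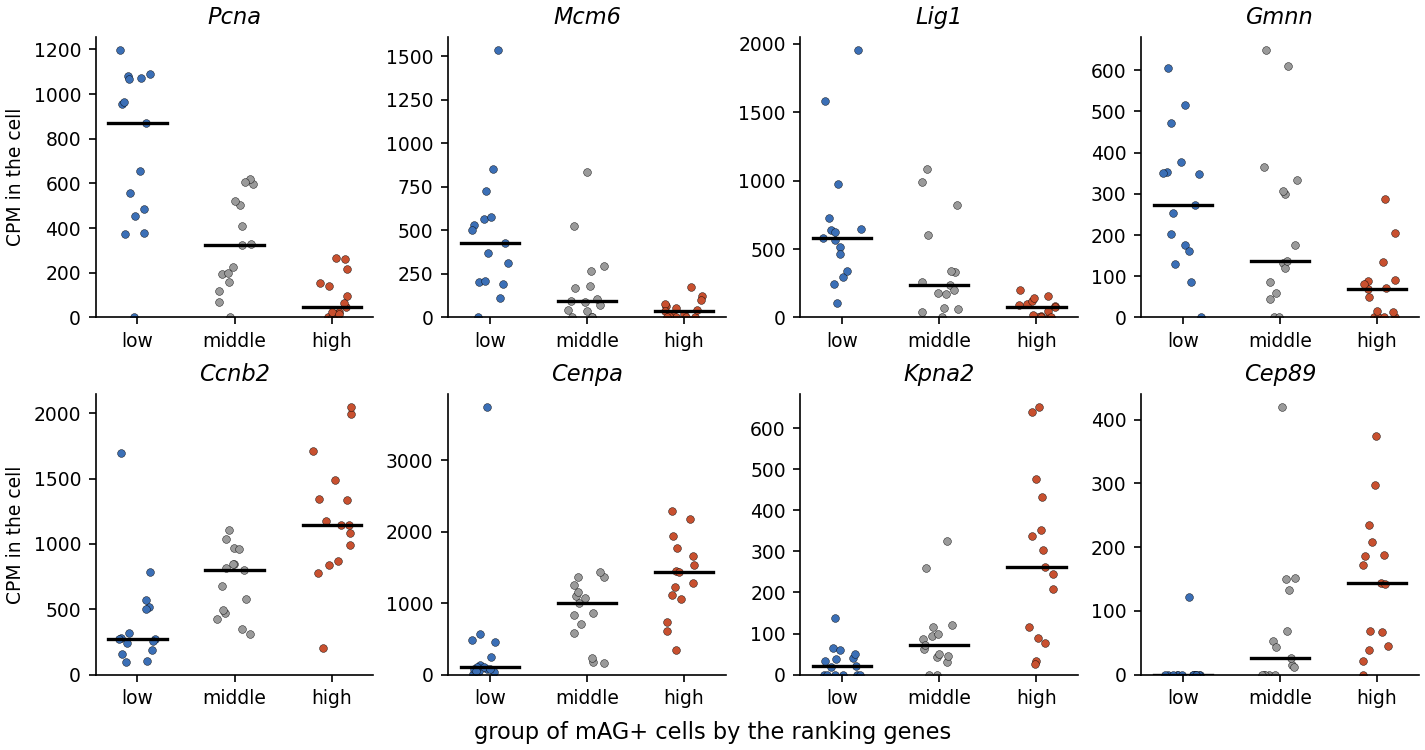
CPM per cell of 8 genes in the low, middle and high group of mAG+ cells (15 cells each, 1 point per cell, black line at the median). Pcna, Mcm6, Lig1 and Gmnn step down through the groups, and Ccnb2, Cenpa, Kpna2 and Cep89 step up, with 1 high low-group cell in Ccnb2 and Cenpa.

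The value of the middle group lay between those of the outer groups for 82 of 155 measured late genes, 68 of 112 measured S phase genes and 2997 of all 8234 measured genes. It lay above both for 47 late and 35 S phase genes. Among genes already selected for a 2-fold difference, 36 of the 41 late genes called higher and 57 of the 80 S phase genes called lower had a middle value in between. For 23 of those 80 S phase genes the middle group was above both others, and for 0 of them below both. Across the 45 cells the ranking sum and the S phase sum had a Pearson r of -0.80 and a Spearman rho of -0.84, and the ranking sum and the late sum had 0.70 and 0.66. These are descriptions over cells of 1 library whose CPM share a total.

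Set beside the other gates, the low group carried S phase transcripts above the mKO2neg cells and the high group was nearer to them. Of the 112 measured S phase genes, 100 were higher in the low group than in the mKO2neg sum, and 45 were higher in the high group. Over all 8234 measured genes these counts were 4190 and 4222. Among the 80 S phase genes called lower, which were selected for the difference between the groups, they were 75 and 25. The S phase sum had a median of 5018 CPM in mKO2neg cells, 5422 CPM in mKO2low cells and 5938 CPM in mKO2high cells, against 7461 CPM in the high group. The ranking sum had medians of 80.5 CPM in mKO2neg, 8.54 CPM in mKO2low and 0 CPM in mKO2high cells. A single mKO2neg cell of 43, with 6627 CPM, lay above the lowest cell of the high group. The mKO2low and mKO2high cells were in another library.

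The S-like name of the low group was checked with 16 markers of S phase. The median cell had counts in 13 of them in the low group, 10 in the middle group and 7 in the high group, and 14 of 15 low-group cells had counts in at least 5. Their summed level had medians of 3608, 1586 and 574 CPM. At least 5 markers were also present in 11 of 15 high-group cells and in 17 of 43 mKO2neg cells, so presence alone does not set the low group apart. The low-group cell with counts in 1 marker does not carry the name.

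The leading genes by size, outside the lists, were of varied function. Cep89, a protein of the distal appendages of centrioles, had 1 count in 1 low-group cell and 140 counts in 14 high-group cells, with a high-group median of 144 and a highest of 374 CPM. The ratio of the sums, 155, has an interval of 27.4 to 6176 because it rests on 1 count. The single low-group cell with a count had 121 CPM, and 9 of 15 high-group cells exceeded it. With the upper 22 cells of the order set against the lower 22, the log2 ratio of Cep89 was 1.82, against 6.25.

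Spp1, osteopontin, had no count in the low group and 62 counts in 11 high-group cells, with a high-group median of 66.1 and a highest of 190 CPM. At the floor this is at least 22.9-fold higher, and the exact interval of the ratio begins at 18.1. Cc2d2a, a protein of the ciliary transition zone, had 2 and 81 counts, a ratio of 44.9 (12.0 to 377). Sqle, squalene epoxidase of cholesterol synthesis, was 14.2-fold higher (5.78 to 45.2) and was found in 2 and 12 cells. Cul3, a scaffold of ubiquitin ligases, had 3 and 58 counts, a ratio of 21.4 (6.98 to 107). Fam83d, Kpna2 and Pttg1 of the late lists were also among the 15 leading higher genes. The others were Qtrt1, Tlk1, Mlxip, Paxx, Pink1, Pqlc3 and Zfp945, with log2 ratios from 3.02 to 4.15.

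Of the 15 leading lower genes, 7 were members of the S phase lists, Cdt1, E2f8, Lig1, Mcm2, Mcm6, Pcna and Pold2, and the pseudogene Pcna-ps2 was another. Tcf19, a transcription factor, had 231 CPM in 13 low-group cells and 8.15 CPM in 3 high-group cells, 28.3-fold lower (13.5 to 71.3), and 12 of 15 low-group cells exceeded every high-group cell. Rnf168, a ubiquitin ligase of the DNA damage response, was 13.4-fold lower (5.91 to 37.4). P2rx1, an ATP-gated channel, had 71 and 3 counts, a ratio of 21.3 (7.01 to 106). Slfn9, Marcksl1, Caap1 and Paxbp1 were the others, with log2 ratios from -3.05 to -3.54.

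Over all measured genes, 2642 of 8234 had their highest value in the middle group. The 5 named here had the highest ratio of the middle group to the higher of the others. F2rl3, a thrombin receptor, had 11.5 CPM in the low, 65.4 CPM in the middle and 11.6 CPM in the high group. Xrcc2, which acts in homologous recombination, had 11.5, 55.2 and 12.8 CPM. Avl9, Ubqln1 and Tubgcp5 were the others, with middle-group values from 40.9 to 92.9 CPM.

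Housekeeping lists were close to the median of all genes. None of 74 measured cytosolic ribosomal protein genes reached 2-fold, with a median log2 ratio of -0.12, and none of 21 nuclear genes of the respiratory chain did, with a median of -0.16. Glycolysis genes had a median of 0.03. Tubulins and stathmin, which build and destabilise microtubules, had a median of -0.17, and Stmn1 had 3162 and 2045 CPM. The list of ribosome biogenesis genes had a median of -0.21, but more of its members were lower than among all measured genes. Of 18 measured, 5 were lower (27.8%) and 1 higher (5.56%), against 15.6% and 18.4% of all measured genes. In this list Myc was 2.62-fold lower (1.85 to 3.78) and Fbl, the nucleolar methyltransferase fibrillarin, 5.14-fold lower (3.47 to 7.85).

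Of 19 measured stem cell genes, 3 were higher, 0 lower and 16 neither, with a median log2 ratio of 0.46. The share called higher, 15.8%, is near the 18.4% of all measured genes. Gata2, a transcription factor of stem and progenitor cells, had 85.0 CPM in the low and 193 CPM in the high group, 2.27-fold (1.73 to 3.003), and 234 CPM in mKO2neg cells. Ly6a, the Sca-1 antigen, had 79.8, 211 and 279 CPM in the same order, 2.64-fold between the groups (2.01 to 3.50). Hlf, a stem cell transcription factor, had 346 and 196 CPM. Megakaryocyte marker genes included Vwf, von Willebrand factor, with 5 counts in 4 low-group cells and 165 counts in 8 high-group cells, a ratio of 36.6 (15.4 to 114), but 1 high-group cell held 31.7% of the summed CPM per cell.

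The promoter elements were counted in the RefSeq windows from 250 bases before to 50 after each start. All 8 ranking genes had a CCAAT box, 6 had a CHR and 0 an E2F element. Of the 41 late genes called higher, 33 were matched to a promoter, and 57.6% of these had a CHR and 78.8% a CCAAT box. Among 87 matched late genes called neither way, the shares were 56.3% and 59.8%, so the CHR was about as frequent in the late genes called neither way. Of all 1511 genes called higher, 1167 were matched, with a CHR in 16.0% and a CCAAT box in 40.0%, close to all measured genes. Of the 15 leading higher genes 14 were matched, and 21.4% of these had both elements.

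Of the 80 S phase genes called lower, 65 were matched, with an E2F element in 30.8%, a CHR in 23.1% and a CCAAT box in 61.5%. Among the 6418 matched measured genes, the shares were 3.86% for E2F, 14.5% for the CHR and 39.7% for the CCAAT box. Over all 27025 promoters of the same length they were 1.63%, 19.4% and 37.9%. In the Mcm6 stretch printed above, both E2F matches and both inverted CCAAT boxes lie within 120 bases of the start.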

How the data were processed

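The authors deposited raw counts for each gene row in each cell, with no normalization, for 2 libraries and a table of the gate of each cell. The submitters' processing notes name HISAT2, HTSeq 0.11.3, Seurat and mm10. The annotation, the cell filters and the use of molecular identifiers were not stated in the labels. Gene rows were 53378, of which 53273 matched GENCODE M21 by ID, and the 105 others held 0.222% of the counts. Each gene was read from the row before it in GENCODE order. No columns of other samples were present, and the libraries shared 0 cell names. Cells were sorted or transferred 1 by 1, and doublets were not called.

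Counts were summed over a group (952522 in the low, 979090 in the middle and 858807 in the high group) and scaled to CPM. A gene was measured with at least 10 counts over both outer groups and counts in at least 6 of their cells. Poisson and conditional binomial 95% intervals are exact. The floor of 3 counts is 3.15, 3.06 and 3.49 CPM. Without replicates, no test was run. The ratio scripts were tested on simulated data. The members and gene lists were chosen with earlier results of these data known, and so were the list members named beyond the rule.

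The rule named the ranking genes, the 15 genes furthest from 0 by log2 ratio on each side with counts in at least 8 cells of the higher group, at most 25% of its summed per-cell CPM in 1 cell, the same direction in the mean per-cell CPM and a symbol that is no predicted-gene number, the 5 highest in the middle group, and up to 4 members per list with the most counts. Alternatives were edgeR 4.0.16 TMM factors, DESeq2 1.42.0 size factors, cell weights, thinning, filters, group sizes, rankings and leaving out cells. Python 3.11.15, numpy 2.4.6, pandas 2.3.3 and scipy 1.17.1 were used. Some results are not reported here.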

Additional observations from a re-analysis of the deposited data

How the results depend on the processing

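No replicate exists, so these alternatives show only how far the description of 1 library depends on choices. Those that leave out named cells, use only genes whose preceding gene has a row, or ask for counts in 15 of the 30 cells were chosen after seeing the data. No paired analysis was possible because the comparison is within 1 library. Over the 19 alternatives that read genes from the row before, late genes called higher ranged from 29 to 49 (reported as 41) and S phase genes called lower from 38 to 88 (reported as 80). The 29 came with the upper 22 cells of the order set against the lower 22. There 29 of 157 late genes (18.5%) were higher, close to the 17% of all measured genes. The 49 came without the deepest cell of each outer group, with 49 of 153 (32%) higher, against 18.4% of all measured genes. The genes called higher and lower were 483 and 479 with each cell thinned to 5000 counts, 3542 and 2899 with no filter, 725 and 716 with at least 50 counts, and 434 and 408 with counts in 15 cells. These settings test other numbers of genes, 2970, 14172, 5583 and 4261. S phase genes called lower were 38 of 60 when thinned and 50 of 73 with counts in 15 cells.

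Under the deposited labels 11 late genes of 39 were higher and 8 S phase genes of 37 lower, and medians turned to -0.65 for mitotic cyclins, -0.31 for proliferation markers, 0.21 for licensing, 0.54 for the E2F list and 0.0754 for all S phase lists. There the log2 ratio turned to -0.19 for Ccnb1, -0.38 for Cc2d2a, -0.88 for Qtrt1, 0.66 for Cdt1, 0.0529 for E2f8, 1.39 for Rnf168, 1.10 for Mcm2, 0.21 for Mcm6, -1.44 for Ccnb2, -0.52 for Arl6ip1, 0.0725 for Gmnn, 0.70 for Paics, 0.0754 for Usp1 and -3.63 for Camp. Setting the upper 22 cells of the order against the lower 22 turned Klf2 to -0.0159, and thinning turned Dusp1 to 0.0431. Camp and Itga2b turned to -0.61 and -0.51 without each gene's largest cell, to -0.92 and -1.04 without the deepest cells, and to -0.77 and -0.97 without the cell rich in neutrophil transcripts. The cause was not tested. Of the log2 ratios of named genes, 2537 of these recomputed values stayed within the counting interval and 484 moved outside it. The 2537 include settings that only change which genes are kept, where the ratio of a gene could not change. They gave 163 values with no filter, 152 with at least 50 counts, 125 with counts in 15 cells and 160 for genes whose preceding gene has a row. A minimum of 2000 counts per cell kept the same cells and also gave 163 unchanged values. Turns of sign are listed above only for genes called at 2-fold. Values of other genes among the 2537 or the 484 can have changed sign.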
